A study of Mus musculus with 33 samples.

Results

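The surfactant protein genes Sftpa1, Sftpb, Sftpc and Sftpd, the airway secretory genes Scgb1a1 and Cyp2f2, and Chil1 were followed in the mouse lung across birth. These 7 genes were found by symbol or older name in the annotation of the Affymetrix MGU74Av2 array, on which a probe set is a group of short probes for 1 transcript. Of the 7 genes, 6 had a probe set, with 1 each, among 12422 probe sets without controls, and no probe set was annotated to Sftpa1. Total RNA of whole lung and whole liver had been measured in 11 groups of 3 mice, 1 array each, of the strain that the labels write as C57/BL or BL/57. Lungs of 10% oxygen were fetal at day 21 of gestation (F21), from dams kept in 10% oxygen for 12 h, or newborn at 2 h and 6 h after birth into 10% oxygen. By the methods, the dams of these newborns were also in 10% oxygen before delivery, for a time not given. Lungs of room air, which holds 21% oxygen, were fetal at F21 or newborn at 2, 6, 12 and 24 h. Livers came from mice in room air at F21, 2 h and 6 h and served as an organ without alveoli or airways. Neither litter nor batch is given in the labels, so that p-values measure the spread between these samples. In whole organs, fewer cells of a type and less RNA per cell cannot be told apart.

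Pulmonary surfactant is the film of lipid and protein that lowers surface tension in the alveolus, and alveolar type 2 cells make and secrete it. Sftpb and Sftpc encode the small hydrophobic proteins that spread the lipid, and Sftpa1 and Sftpd encode the collectins, large sugar-binding proteins of innate defence. The bronchioles are lined by club cells, which secrete secretoglobin 1a1 (Scgb1a1) and hold the cytochrome P450 Cyp2f2, while Chil1 encodes a chitinase-like protein made by epithelium and macrophages. In fetal life these genes are switched on as the epithelium matures toward birth.

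The values were the authors' signal intensities on a linear scale, scaled so that the trimmed mean of every array was close to 100. Across probe sets, Pearson's r between arrays of 1 group was 0.736 to 0.813 in lungs of 10% oxygen, 0.868 to 0.931 in lungs of room air and 0.856 to 0.889 in liver. The Gapdh 3′ to 5′ ratio, a sign of RNA or labelling quality, ran between 1.21 and 9.40 in lungs of 10% oxygen, against 0.734 to 1.15 in room air, so that it differed between the oxygen levels without overlap. Of the hepatocyte markers, Alb was 7.4 to 2160 in lung and 44095 to 56445 in liver. The markers of both organs thus fitted their labels, with 1 F21 lung of 10% oxygen highest in the summed hepatocyte list (3326, against 170 to 672 on the other lung arrays). Changes were tested on log2 signals floored at 10 with limma across all arrays of an organ, and a probe set passed at a Benjamini-Hochberg adjusted p under 0.05. In lung 5 of the 6 member probe sets were bright enough to be tested, and 2 of them in liver.

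Promoters of 4 of the 7 genes were matched in RefSeq (GRCm38.p6), and those of the 3 genes whose expression could be tested are shown as the sequence in front of the changes described below. Each runs from 250 bases before to 50 bases after the start of the gene. Capitals mark TCAAG, a core of sites of the lung factor Nkx2-1, and TGTTT, a core of forkhead factor sites, each searched on both strands, where the reverse complements read CTTGA and AAACA. The windows are chr6:72304360-72304659 (plus strand) for Sftpb, chr7:27119705-27120004 (plus strand) for Cyp2f2 and chr1:134181906-134182205 (plus strand) for Chil1.
Sftpb: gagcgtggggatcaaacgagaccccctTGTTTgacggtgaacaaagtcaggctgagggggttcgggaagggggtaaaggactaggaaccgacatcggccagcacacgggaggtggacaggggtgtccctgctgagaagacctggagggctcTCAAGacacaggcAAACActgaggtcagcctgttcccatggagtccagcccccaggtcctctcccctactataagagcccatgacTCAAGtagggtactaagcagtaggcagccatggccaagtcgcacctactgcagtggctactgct
Cyp2f2: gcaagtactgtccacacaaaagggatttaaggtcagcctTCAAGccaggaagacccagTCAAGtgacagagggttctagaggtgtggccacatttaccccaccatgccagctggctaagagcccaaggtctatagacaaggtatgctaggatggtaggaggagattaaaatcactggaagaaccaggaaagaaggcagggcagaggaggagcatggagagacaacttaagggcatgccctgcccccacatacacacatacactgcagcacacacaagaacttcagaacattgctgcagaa
Chil1: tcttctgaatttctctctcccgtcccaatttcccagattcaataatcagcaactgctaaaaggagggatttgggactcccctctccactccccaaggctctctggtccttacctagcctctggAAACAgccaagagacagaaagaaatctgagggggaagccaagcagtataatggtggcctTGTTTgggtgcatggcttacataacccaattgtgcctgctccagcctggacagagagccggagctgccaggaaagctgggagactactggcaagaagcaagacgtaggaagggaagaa
Sftpb held 2 copies of TCAAG, 99 and 14 bases before the start, and 2 copies of the forkhead letters. Cyp2f2 held 2 copies of TCAAG and none of TGTTT, and Chil1 held 2 copies of TGTTT and none of TCAAG. Such short words are common: of 32851 promoter windows, 40.7% held TCAAG and 10.8% held it at least 2 times, and the shares for TGTTT were 50.5% and 22%. Sftpc, Sftpd and Scgb1a1 had no entry in the promoter table, and that of Sftpa1 is not shown as its RNA was not measured.

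Sftpc (probe set 94900_at, gene at chr14:70520941-70524081 in GRCm38.p6) was among the brightest transcripts of the lung, and its signal was lowest 2 h after birth in room air. It ranked first of all probe sets on 19 of 24 lung arrays and at place 4 or better on every one. In lungs of 10% oxygen its signal was 34741, 35796 and 20943 at F21, 40889, 34919 and 36521 at 2 h, and 41756, 44547 and 41394 at 6 h. In lungs of room air it was 54367, 44418 and 43575 at F21, 17961, 19130.4 and 19209.6 at 2 h, 51117, 54585 and 60597 at 6 h, 39708, 34069.6 and 33975 at 12 h, and 41463, 45559 and 43704 at 24 h. The 3 lungs of room air at 2 h were thus the lowest of all 24, closely grouped and apart from every other lung, and at 6 h the values overlapped with those of F21.

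The fall of Sftpc at 2 h in room air was 1.33 on the log2 scale (SE 0.26, adjusted p = 0.00428 in limma), a mean of 18767 against 47453 at F21. It was the only one of the 5 tested members called at 2 h, where 4.24% of all 6931 probe sets were called, and 16.1% were lower without overlap. At 6 h Sftpc was higher than at 2 h by log2 1.56 (SE 0.26, adjusted p = 0.00104), where 3.46% of all probe sets were called. At 6, 12 and 24 h it differed from F21 by log2 0.23, -0.40 and -0.12 (SE 0.26 each), none past the threshold.

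The low Sftpc of 2 h came with low values of other very bright transcripts. Of the 20 probe sets brightest at F21, of which Sftpc was 1, the other 19 were all lower at 2 h in room air and 13 of them passed the test, with a median log2 change of -0.85 and a range of -1.55 to -0.10. They were mostly hemoglobin, ribosomal protein and elongation factor transcripts. A choice by F21 signal itself favours lower values at the later time. Among the brightest 1% of probe sets by mean over all lung arrays, members left out, the median was -0.71 in room air at 2 h. Of these, 59 of 66 were lower, while the median of all probe sets was 0.02. Of the bright members, Sftpb changed by -0.08 and Scgb1a1 by 1.63. The highest signal on an array was 17961 to 19210 at 2 h and 43575 to 54367 at F21. Quantile normalization gives the top rank of every array 1 value, and Sftpc ranked first on every room air array at F21 and 2 h. Its change at 2 h was thus fixed at 0 there and shows nothing of its level. With cyclic loess scaling, added after the data were seen, the change of Sftpc was -0.30 (adjusted p = 0.574 in limma). A fall of Sftpc in particular and a lower reading of most very bright spots on these arrays cannot be told apart.

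**Figure D1:**
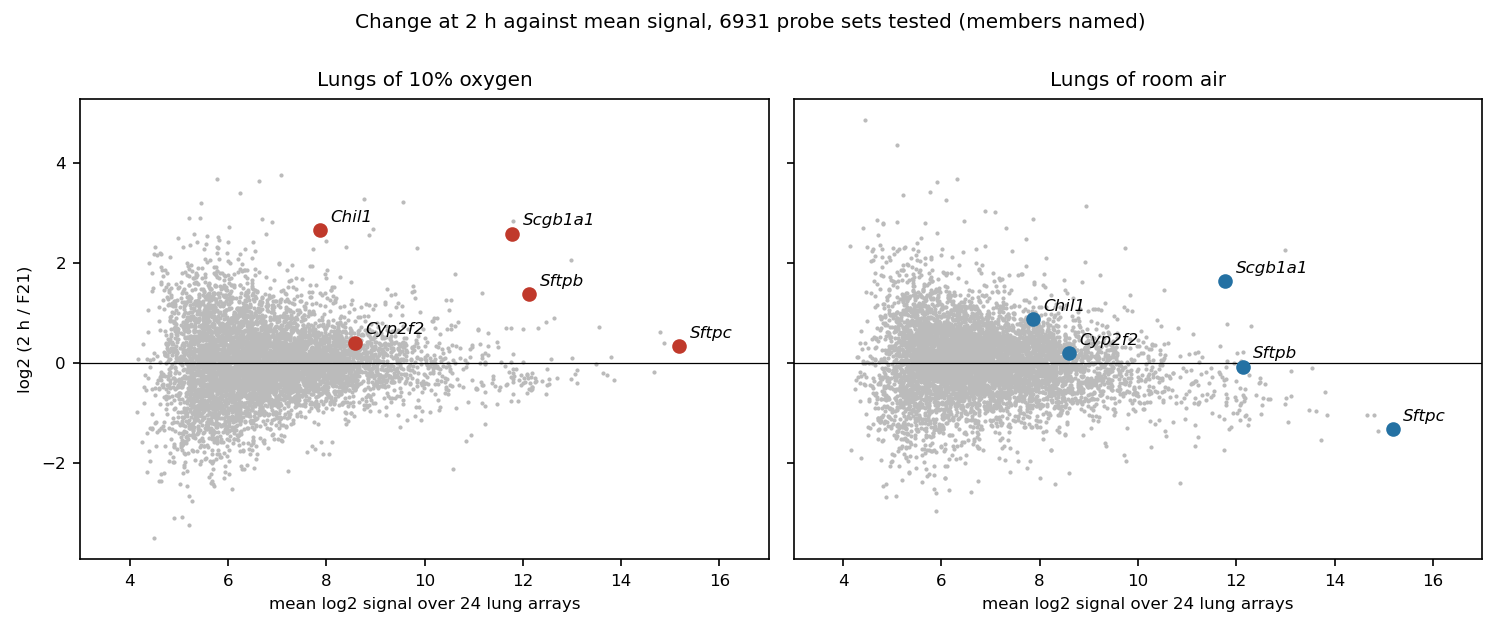
Log2 change at 2 h against the F21 lungs of the same oxygen (vertical axis) by mean log2 signal over the 24 lung arrays (horizontal axis), with 1 grey point per tested probe set and the 5 tested members named and coloured. In room air the cloud of bright probe sets bends below 0 and Sftpc (-1.33) lies at its end, while Scgb1a1 (1.63) lies above it; in 10% oxygen Chil1 (2.65), Scgb1a1 (2.58) and Sftpb (1.36) lie above the cloud.

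Sftpb (probe set 160891_at, chr6:72304610-72314373), the other hydrophobic surfactant protein, differed little after birth in room air and was lowest and most scattered in the F21 lungs of 10% oxygen. In 10% oxygen its signal was 4959, 2770 and 889 at F21, 5980.2, 4735 and 7321 at 2 h, and 5615, 3624 and 4009 at 6 h. In room air it was 4959, 5331 and 3441 at F21, 4315, 5244 and 3395 at 2 h, 6866, 5846 and 5648 at 6 h, 5028, 5411 and 5739.6 at 12 h, and 5365, 4443 and 3857 at 24 h. A single F21 lung of 10% oxygen, at 889, lay below all other lungs, and the lungs of room air at 6 h lay above the F21 lungs of room air, without overlap, as did 9.81% of all probe sets.

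Against F21, Sftpb in room air differed by log2 -0.08, 0.44, 0.26 and 0.01 at 2, 6, 12 and 24 h (SE 0.37 each, none called), and the 95% intervals of the 4 changes reached from log2 -0.84 to 1.20. In 10% oxygen it was higher at 2 h by log2 1.36 (SE 0.37, adjusted p = 0.0440), with 6012 ± 1293 at 2 h against 2873 ± 2037 at F21 (SD, n = 3 each), although the groups overlapped. Without the third F21 lung that rise was log2 0.68 (adjusted p = 0.255), and the Gapdh ratio of that array, 9.40, was the highest of all lungs. The call was lost in 5 of the 6 fits with 1 array left out. At 6 h the difference was log2 0.91 (adjusted p = 0.145).

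Sftpd (probe set 102648_at, chr14:41172212-41185198) was close to background. Its probe set read 6.2 to 85 in lung and 5.9 to 47.8 in liver, with means of 41.4 and 23.8, and it did not pass the filter in any fit. In 10% oxygen it read 85, 34.6 and 23.3 at F21, 84.4, 58.6 and 54.7 at 2 h, and 22.8, 70.2 and 17.5 at 6 h. In room air it read 26.6, 34.5 and 49.7 at F21, 54.7, 44.5 and 72.2 at 2 h, 37.8, 29.3 and 53.5 at 6 h, 33.2, 6.2 and 41.8 at 12 h, and 27, 10.7 and 21 at 24 h. Lung and liver overlapped at F21 and 6 h in room air, while at 2 h the lungs of room air lay above the livers (8 to 34.2), and those of 10% oxygen above every liver array. As it was not bright enough to be tested, these values are a description, and the other collectin, Sftpa1, was not analysed here.

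Scgb1a1 (probe set 94291_at, chr19:9083642-9087956), the main secreted protein of club cells, rose after birth at both oxygen levels. In 10% oxygen its signal was 549, 1152 and 108 at F21, 1987, 2795 and 2638 at 2 h, and 4461, 5427 and 3863 at 6 h. In room air it was 2731, 2744 and 798 at F21, 4888, 7547 and 4833 at 2 h, 7444, 9125 and 7687 at 6 h, 7173, 9096 and 8349.5 at 12 h, and 6662, 9824 and 7274 at 24 h. Every newborn lung lay above every F21 lung of the same oxygen, and within 10% oxygen the 6 h lungs lay above the 2 h lungs. Of all tested probe sets, 8.27% and 9.19% were higher without overlap at 2 h and 6 h in 10% oxygen, and 14.7%, 9.81%, 10.6% and 8.48% at 2, 6, 12 and 24 h in room air.

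In 10% oxygen the rise of Scgb1a1 over F21 was log2 2.58 at 2 h (SE 0.52, adjusted p = 0.00785) and log2 3.47 at 6 h (SE 0.52, adjusted p = 3.02e-04), or 5.99-fold and 11.1-fold. In room air it was log2 2.15 at 6 h (adjusted p = 0.0378) and 2.17 at 12 h (adjusted p = 0.0348), with SE 0.52 each. At 2 h and 24 h the differences of log2 1.63 and 2.10 did not pass (adjusted p = 0.0724 and 0.0568), though the groups did not overlap. Scgb1a1 was the only member called in room air at 6 h and at 12 h, where 1.02% and 1.34% of all probe sets were called, and 0 of 5 were called in limma at 24 h, against 0.577%, with Scgb1a1 alone at an unadjusted p under 0.05 and none by the methods' t-test. At each oxygen level 1 F21 lung had a far lower value, 108 in 10% oxygen and 798 in room air. Without the F21 lung at 108 the changes in 10% oxygen were log2 1.62 at 2 h and 2.51 at 6 h and still passed. Without the F21 lung at 798 the changes in room air were log2 1.56 at 6 h and 1.58 at 12 h and did not pass (adjusted p = 0.241 and 0.222), and at 6 h the call was lost whichever of the 6 arrays was left out.

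Cyp2f2 (probe set 100069_at, chr7:27119955-27133660), the club cell cytochrome P450, did not pass the test after birth at either oxygen level, and most of its values in 10% oxygen lay below those of room air. In 10% oxygen its signal was 173, 279 and 111 at F21, 304.5, 260.2 and 155 at 2 h, and 341, 191 and 190.2 at 6 h. In room air it was 434, 355 and 757 at F21, 551, 707 and 450.0 at 2 h, 506, 438 and 337 at 6 h, 329, 1061 and 773 at 12 h, and 449, 1356 and 574 at 24 h. Only 1 of the 9 lungs of 10% oxygen, at 341, reached the range of the lungs of room air. The changes over F21 were log2 0.40 at 2 h and 6 h in 10% oxygen and -0.21 to 0.53 in room air (SE 0.43 each).

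Chil1 (probe set 99952_at, chr1:134182156-134190031) was lowest in the F21 lungs of 10% oxygen, rose after birth there and then overlapped with the lungs of room air. In 10% oxygen its signal was 39.1, 63.7 and 34.1 at F21, 339.9, 362 and 171 at 2 h, and 274, 261 and 251 at 6 h. In room air it was 282, 217 and 326 at F21, 427, 795 and 353 at 2 h, 512, 509.8 and 247 at 6 h, 336, 220.5 and 234 at 12 h, and 342, 225 and 104 at 24 h. The 3 F21 lungs of 10% oxygen lay below all other 21 lungs, and close to the liver range of 4.6 to 30.8.

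In 10% oxygen Chil1 was higher by log2 2.65 at 2 h (SE 0.39, adjusted p = 8.24e-04) and 2.57 at 6 h (SE 0.39, adjusted p = 3.63e-04), 6.28-fold and 5.95-fold. Both passed with any 1 array left out. Macrophages also make Chil1, and the summed signal of 11 macrophage markers was higher without overlap at these times, at 1068 to 1528 at 2 h and 1161 to 1547 at 6 h against 617 to 751 at F21. Of the 6 tested markers, Lyz2, which type 2 cells also make, was higher by log2 2.29 and 2.30 and no other passed. The part of macrophages in the rise of Chil1 was not tested. In room air the changes were log2 0.86, 0.57, -0.07 and -0.44 at 2, 6, 12 and 24 h, none past the threshold, with no overlap between 2 h and F21. Altogether 3 of the 5 tested members were called in 10% oxygen at 2 h, all higher, against 2.65% of all probe sets called and 1.37% called higher, and 2 at 6 h, both higher, against 6.31% called and 2.99% called higher.

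**Figure D2:**
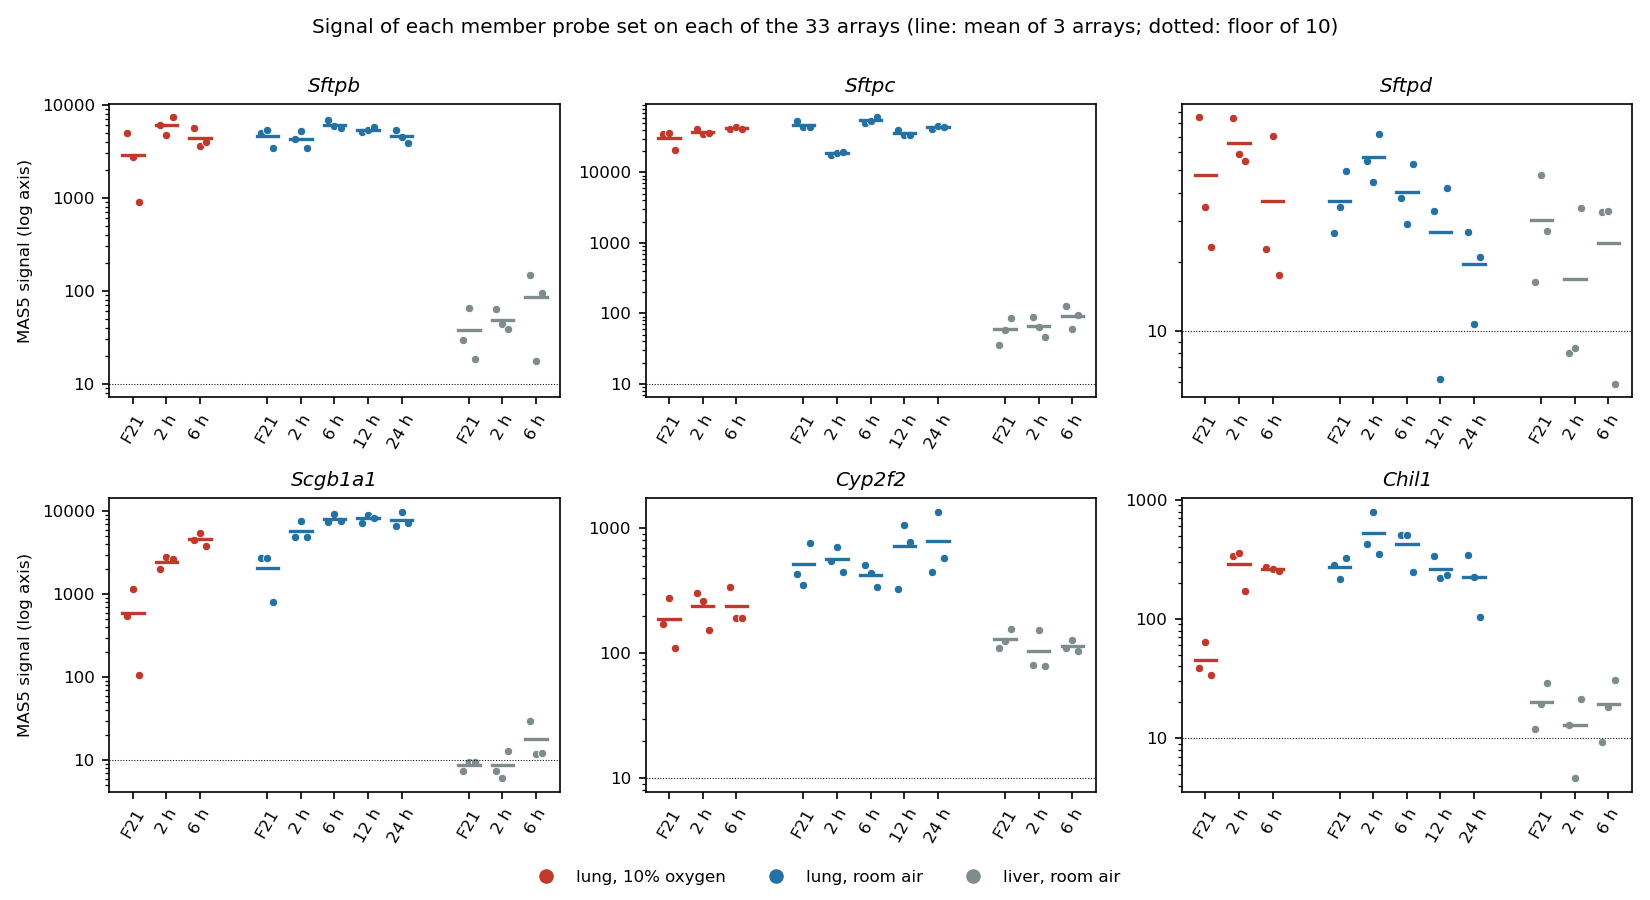
Signal on a log axis of the 6 member probe sets on each of the 33 arrays, in lungs of 10% oxygen (red), lungs of room air (blue) and livers of room air (grey), with 1 point per mouse, a line at the mean of each group and the floor of 10 dotted. Sftpc dips to 17961 to 19210 at 2 h in room air, Scgb1a1 climbs after birth at both oxygen levels, Chil1 is lowest among lungs at F21 in 10% oxygen, and Sftpd overlaps with liver at F21 and 6 h.

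**Figure D3:**
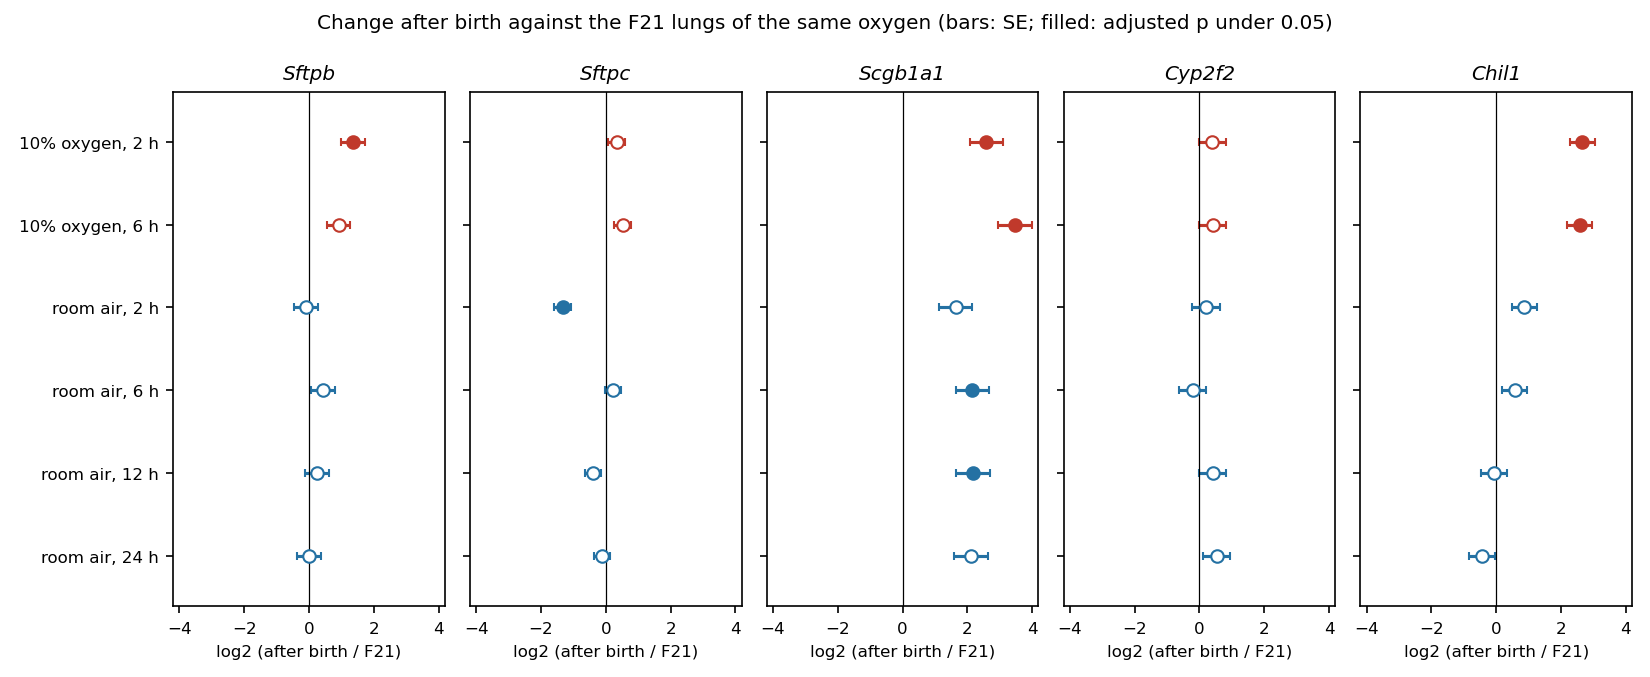
Log2 change after birth against the F21 lungs of the same oxygen for the 5 tested members (points, with bars of 1 SE), in 10% oxygen (red) and room air (blue); filled points passed at an adjusted p under 0.05. The 5 filled points of 10% oxygen are Sftpb at 2 h and Scgb1a1 and Chil1 at 2 h and 6 h, and those of room air are Sftpc at 2 h and Scgb1a1 at 6 h and 12 h.

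Before birth, the mean signals of Chil1, Scgb1a1 and Cyp2f2 were lower in the lungs of 10% oxygen than in the lungs of room air, with overlap for Scgb1a1. Chil1 was lower, with a log2 difference of -2.62 (SE 0.39, adjusted p = 2.66e-04), with 45.6 ± 15.8 in 10% oxygen against 275 ± 55.1 in room air (SD, n = 3 each). Scgb1a1 was lower, with a log2 difference of -2.15 (SE 0.52, adjusted p = 0.0126), at 603 ± 524 in 10% oxygen against 2091 ± 1120 in room air. Cyp2f2 was lower, with a log2 difference of -1.48 (SE 0.43, adjusted p = 0.0326), at 188 ± 85.1 in 10% oxygen against 515 ± 213 in room air, a call that held in 2 of the 6 fits with 1 array left out. Of the 5 tested members these 3 were called, all lower, against 7.13% of all probe sets called and 4.62% called lower. Chil1, Cyp2f2 and Sftpc did not overlap between the groups, as did 13.7% of all probe sets in that direction. The surfactant members did not pass: Sftpc differed by log2 -0.67 (adjusted p = 0.120) and Sftpb by -0.97 (adjusted p = 0.118).

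Several other values moved with this comparison. The Gapdh ratios of the 3 F21 lungs of 10% oxygen were 1.21, 6.79 and 9.40, against 0.824 to 1.03 in room air. With that ratio as a covariate in limma, Chil1 differed by log2 -2.83 (adjusted p = 0.00578) and passed. Scgb1a1 at -1.69 (adjusted p = 0.204) and Cyp2f2 at -1.17 (adjusted p = 0.299) did not pass. As the ratio did not overlap between the oxygen levels, this covariate cannot separate them, and array quality and oxygen cannot be told apart. Without the third F21 lung of 10% oxygen, Scgb1a1 differed by log2 -1.19 (adjusted p = 0.0820) and Cyp2f2 by -1.15 (adjusted p = 0.176), and Chil1 by -2.44, still past the threshold. The F21 lung of 10% oxygen with the ratio of 1.21, still above those of room air, had 549 for Scgb1a1, 173 for Cyp2f2 and 39.1 for Chil1. Each was below all 3 F21 lungs of room air, but 1 lung carries no test. The summed signal of 11 macrophage markers was 617 to 751 in 10% oxygen against 1137 to 1984 in room air, with 2 of 6 tested markers lower and none higher, and that of 12 hepatocyte markers was 288 to 3326 against 206 to 249. The macrophage markers that passed were Lyz2 (log2 -2.83), which type 2 cells also make, and Cd68 (-1.66), against 4.62% of all probe sets called lower. The summed signal of 10 mesenchyme markers was higher without overlap, at 17838 to 23031 in 10% oxygen against 14476 to 16978 in room air, though 0 of 9 tested markers passed. That of 8 type 1 cell markers was lower without overlap, at 5709 to 9586 against 11305 to 13159. The part of these cells and of liver RNA in the differences was not tested.

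After birth the differences of Scgb1a1 and Chil1 between oxygen levels no longer passed. At 2 h Scgb1a1 differed by log2 -1.20 (adjusted p = 0.113), with 2473 ± 428 in 10% oxygen against 5756 ± 1551 in room air (SD, n = 3 each) and Chil1 by -0.84 (adjusted p = 0.145), with overlap. Cyp2f2 was lower, with a log2 difference of -1.28 (SE 0.43, adjusted p = 0.0409), at 240 ± 76.9 in 10% oxygen against 569 ± 129 in room air, and this call held in 1 of the 6 fits with 1 array left out. Sftpc was higher by log2 0.99 (SE 0.26, adjusted p = 0.0104), at 37443 ± 3090 in 10% oxygen against 18767 ± 699 in room air, the low point described above. These 2 members were called at 2 h, 1 in each direction, against 16.8% of all probe sets, with 7.76% higher and 9.08% lower. Sftpc was higher without overlap, as were 17.5% of all probe sets, and Scgb1a1 and Cyp2f2 were lower without overlap, as were 20% of all. Under quantile normalization, which keeps only the rank on each array, the difference of Sftpc was log2 -0.40. Sftpc ranked 1 on every array of room air at 2 h and 3, 3 and 2 in 10% oxygen. That sign was thus fixed by rank and cannot show a reversal. Under cyclic loess the difference of Sftpc was 0.13.

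At 6 h 0 of the 5 tested members passed between the oxygen levels in limma, against 5.8% of all probe sets, and 0 had an unadjusted p under 0.05. All 5 tested members had lower means in 10% oxygen, with log2 differences of -0.38 (Sftpc) to -0.87 (Cyp2f2), and Sftpb, Sftpc and Scgb1a1 did not overlap, as did 13% of all probe sets in that direction. The methods' t-test at its unadjusted threshold of 0.01 called Sftpc and Scgb1a1 there. For Scgb1a1 the values were 4583 ± 789 in 10% oxygen and 8086 ± 909 in room air, and the lungs of 10% oxygen at 6 h and of room air at 2 h differed by log2 0.31, higher in room air (adjusted p = 0.719).

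**Figure D4:**
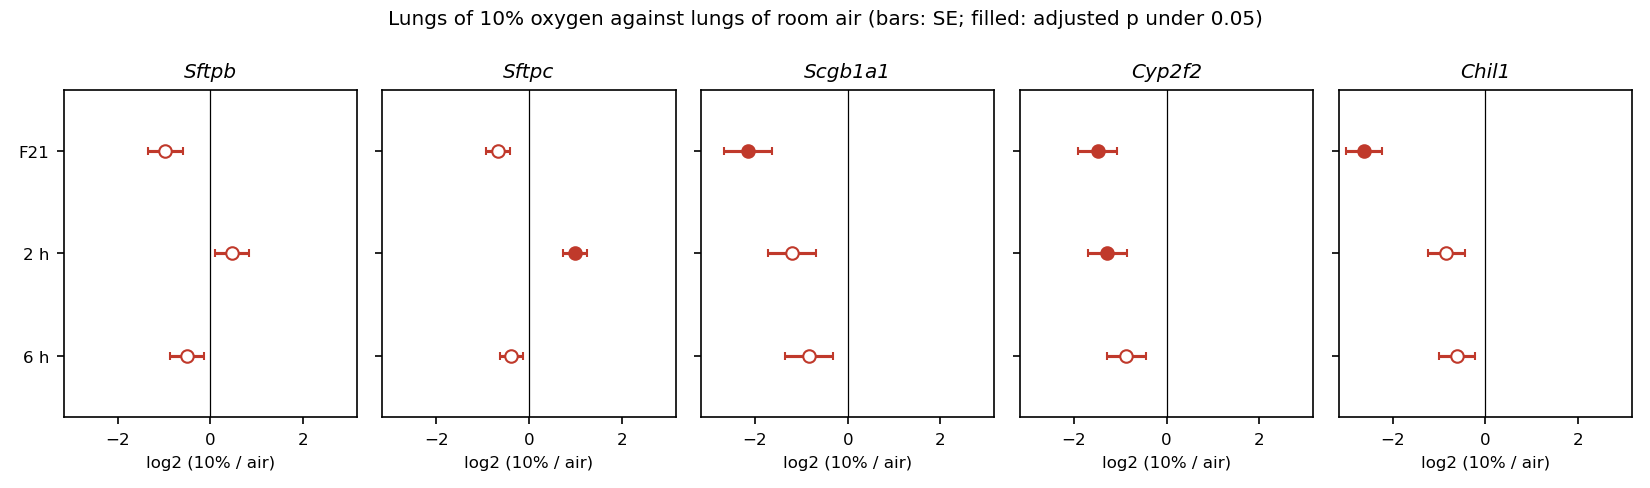
Log2 difference between lungs of 10% oxygen and lungs of room air at F21, 2 h and 6 h for the 5 tested members (points, with bars of 1 SE); filled points passed at an adjusted p under 0.05. Chil1, Scgb1a1 and Cyp2f2 lie furthest below 0 at F21 (-2.62, -2.15 and -1.48), and Sftpc lies above 0 at 2 h only (0.99).

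Whether the changes differed between the oxygen levels was tested directly. At 2 h only Sftpc passed: its change over F21 was larger in 10% oxygen by log2 1.67 (adjusted p = 0.0404), that is 0.33 in 10% oxygen against -1.33 in room air, where 0.476% of all probe sets passed. That call was lost with 10 of the 12 arrays of the contrast left out in turn and in the fit of these groups alone (adjusted p = 0.126). Under quantile normalization, which keeps only the rank on each array, the difference was -0.18. As the change in room air was fixed at 0 there, that value holds only the ranks in 10% oxygen and cannot test the difference. At 6 h 0 of 5 members passed in limma, against 0.0144% of all probe sets. The change of Chil1 was larger in 10% oxygen by log2 2.01 (SE 0.55, unadjusted p = 0.00130, adjusted p = 0.239) and that of Scgb1a1 by 1.32 (adjusted p = 0.626), so that neither was shown to differ from the change in room air. These changes are taken from each oxygen level's own F21 lungs, and with the room air F21 lungs as the baseline no member was called in 10% oxygen at 2 h or 6 h. Scgb1a1 then differed by log2 0.43 and 1.32 (adjusted p = 0.687 and 0.113), and Chil1 by 0.03 and -0.05.

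**Figure D5:**
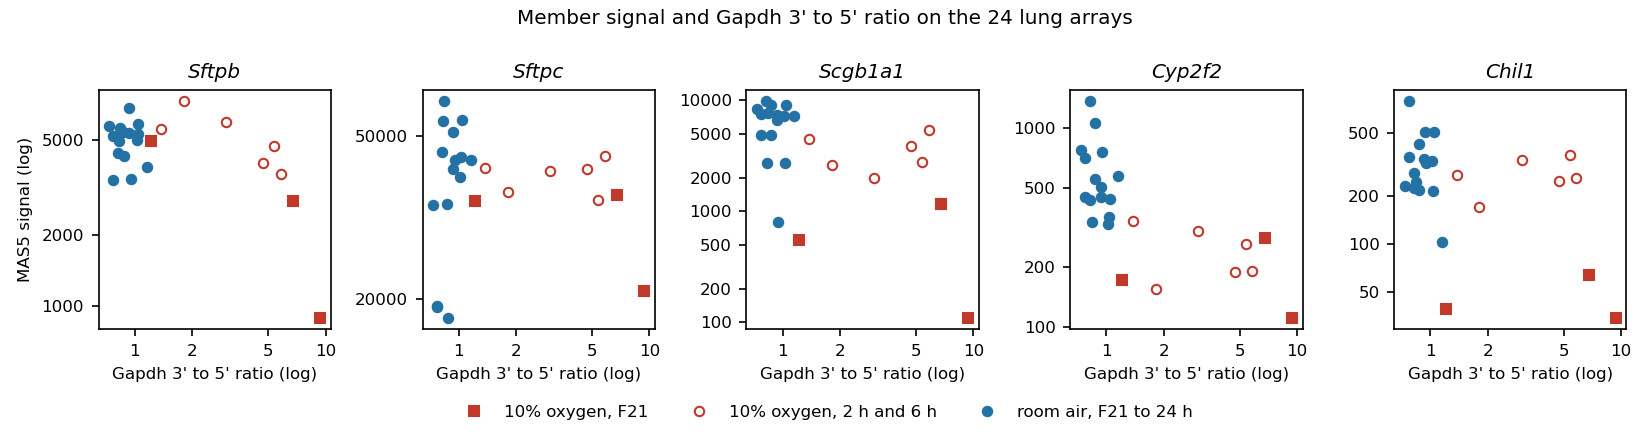
Signal of the 5 tested members (vertical log axis) against the Gapdh 3′ to 5′ ratio (horizontal log axis) on the 24 lung arrays, with F21 lungs of 10% oxygen as red squares, newborn lungs of 10% oxygen as open red circles and lungs of room air in blue. The lungs of room air lie at ratios of 0.734 to 1.15, and all lungs of 10% oxygen lie at higher ratios. The F21 lung of 10% oxygen with the ratio of 9.40 has the lowest Sftpb and Scgb1a1, while Chil1 is low in all 3 F21 lungs of 10% oxygen.

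In order of mean level, the 8 lung groups formed few steps that exceeded their spread. Scgb1a1 was highest in room air at 12 h, then 6 h, 24 h and 2 h, followed by 10% oxygen at 6 h and 2 h, room air at F21 and 10% oxygen at F21. Only the last of these 7 steps passed the test between neighbours. For Chil1, highest in room air at 2 h, the only such step was the last, between room air at 24 h and 10% oxygen at F21 (log2 2.18, adjusted p = 6.17e-04). No step passed the test for Sftpb, Sftpc or Cyp2f2, although the 3 lungs of room air at 2 h lay below the next group for Sftpc without overlap (log2 0.66, SE 0.26, adjusted p = 0.0632). Their highest groups were room air at 6 h for Sftpb and Sftpc and at 24 h for Cyp2f2.

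Liver, which lacks alveolar and airway epithelium but holds macrophages and hepatocytes, gave the level of these probe sets in another organ. All 5 members tested with both organs were higher in lung at F21, 2 h and 6 h, without overlap. Among all probe sets, 28%, 33.9% and 28.6% were called, and 16%, 19% and 15.9% were called higher in lung. Without overlap, 25.5%, 29.3% and 24.3% were higher in lung. Sftpb, Scgb1a1 and Chil1 passed the filter only through the lung arrays, where they are bright, and the filter left out Sftpd. The count of 5 was thus largely set by the filter, and it only describes the levels. Sftpc read 17961 to 60597 on the lung arrays and 35.6 to 125.6 in liver, and at F21 the difference was log2 9.71 (SE 0.26, adjusted p = 2.96e-23). Sftpb read 889 to 7321 in lung and 17.7 to 147 in liver, a difference of log2 7.09 at F21. Scgb1a1 read 6.1 to 29.5 in liver, under the floor of 10 on 5 of 9 arrays, so that its difference of log2 7.50 at F21 is a lower bound. Chil1 differed by log2 3.85 at F21. Cyp2f2 read 79.6 to 156 in liver and differed least, by log2 1.92 at F21 (SE 0.40, adjusted p = 4.28e-04), and its F21 lungs of 10% oxygen, at 111 to 279, overlapped with the livers. In liver, the 2 tested members, Sftpc and Cyp2f2, did not pass in limma at 2 h or 6 h against F21, where 0.913% and 1.84% of all probe sets were called, and 0 of the 2 had an unadjusted p under 0.05 or passed the methods' t-test.

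Among themselves the members varied together to different degrees over the 24 lung arrays, which share scaling and RNA quality. Pearson's r on log2 signals was highest for Scgb1a1 with Chil1 (0.699), with Sftpb (0.695) and with Cyp2f2 (0.603), and near 0 for Sftpc with Cyp2f2 (0.04) and Chil1 (0.07). Taken within groups, the highest were Sftpc with Scgb1a1 (0.738), Sftpb with Scgb1a1 (0.692) and Sftpb with Sftpc (0.647). These values describe the arrays and carry no test.

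The genes whose pattern was most like that of each member over the 24 lung arrays were found among all other tested genes by the same r. For Scgb1a1 they were the transcription factor Tfcp2l1 (0.938), the cytochrome P450 Cyp4b1 (0.91) and complement component Hc (0.905), and within groups r was 0.753 to 0.818. For Chil1 they were the paraoxonase Pon1 (0.892), the lysozyme of type 2 cells and macrophages Lyz2 (0.876) and the lipid desaturase Scd1 (0.813). For Sftpb they were the type 1 cell receptor Ager (0.879), Dlst and Nfe2l1 (0.855 and 0.849), and for Cyp2f2 they were Sema3a, Msn and Gstz1 (0.837 to 0.846). For Sftpc they were Cop1, Snrpb and Flt3 (0.781 to 0.83), of which Cop1 and Snrpb had an r within groups of only 0.06 and 0.18.

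Lipid enzymes and vesicle genes of surfactant production were lower in the F21 lungs of 10% oxygen where they passed. Of 33 genes listed for surfactant lipid synthesis, lamellar bodies and protein processing, 21 were tested. Between F21 lungs of 10% oxygen and room air the list median was log2 -0.36 beside -0.04 over all probe sets. In F21 lungs of 10% oxygen 4 of the 21 were lower than in room air and none higher, against 4.62% of all probe sets called lower. They were Scd1, a desaturase of fatty acids (-3.71), Vamp8, a protein of vesicle fusion (-0.90), Elovl1, which elongates fatty acids (-1.62), and Plin2, a coat protein of lipid droplets (-1.25). After birth into 10% oxygen 2 of the 21 were higher at both times, Scd1 by log2 3.21 at 2 h and 2.28 at 6 h, and Vamp8 by 0.80 and 0.98. Of all probe sets 1.37% and 2.99% were called higher at these times. In room air none passed at 2 h, Scd2 was lower at 6 h and 12 h (log2 -1.70 and -1.86), and Vamp8 was higher at 24 h (1.05). There 0.202% and 0.462% of all probe sets were called lower at 6 h and 12 h, and 0.433% higher at 24 h. At 2 h in 10% oxygen against room air, Fasn, the fatty acid synthase, was higher by log2 1.31 and Plin2 lower (-1.06), and at 6 h Elovl1 was lower (-1.71). Of all probe sets, 7.76% were called higher and 9.08% lower at 2 h, and 3.55% lower at 6 h. With 1 array left out, Scd1 at F21 and at 2 h and Fasn passed in all 6 fits, while Plin2 passed in 1 at F21 and in 2 at 2 h.

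Of 18 listed regulators of surfactant genes, 14 were tested, and those that passed did so between oxygen levels. Cebpb, a factor of the acute phase and of type 2 cells, was higher in 10% oxygen at F21 (log2 1.47) and at 2 h (1.14). Wwtr1, a coactivator that binds Nkx2-1, was higher at the same times (1.24 and 0.84), but its other probe set read -0.47 and -1.46. At F21 2.51% of all probe sets were called higher. At 2 h the forkhead factor Foxa2 (0.92) and Klf5 (0.77) were also higher, so that 4 of 14 passed, where 16.8% of all probe sets were called and 7.76% called higher. With 1 array left out, Foxa2 and Klf5 passed in 2 and Wwtr1 in 1 of the 6 fits at 2 h, and Cebpb in 4. At 6 h Nfib was higher (1.20), in 4 of 6 such fits, where 2.25% of all probe sets were called higher. None of the 14 passed between newborn and F21 lungs of the same oxygen. Of 7 tested genes of surfactant uptake and collectin binding, Cd14 was higher at 6 h in room air (1.45), Abca1 was lower at 2 h (-1.73) and Cd14 at 6 h (-1.04) in 10% oxygen against room air. Shares of all probe sets were 0.822% called higher at 6 h in room air, and 9.08% and 3.55% called lower at 2 h and 6 h between oxygen levels.

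Of 25 listed genes of other airway secretory cells, 13 were tested. In F21 lungs of 10% oxygen 2 were lower, Cyp4b1 (log2 -1.82) and the lipocalin Lcn2 (-1.50), and none higher, against 4.62% of all probe sets called lower. After birth into 10% oxygen Lcn2 was higher at 2 h (1.85), and Lcn2 (2.25), Cyp4b1 (1.68) and Selenbp1 (1.46) at 6 h, though the other probe set of Lcn2 read -0.11 and 0.93. Of all probe sets 1.37% and 2.99% were called higher at these times. At 2 h the immunoglobulin receptor Pigr (-2.03) and Cyp4b1 (-1.21) were lower in 10% oxygen than in room air and Ces1d was higher (0.77). There 9.08% of all probe sets were called lower and 7.76% higher. In room air only Aldh1a1 passed, at 12 h and 24 h (1.52 and 1.79), with its other probe set at 0.50 and -0.45. There 0.88% and 0.433% of all probe sets were called higher. With 1 array left out, Lcn2 passed in 1 of 6 fits at F21, in 1 at 2 h and in 6 at 6 h. Cyp4b1 passed in 6 at F21 and at 6 h in 10% oxygen and in 3 at 2 h between oxygen levels. Pigr passed in 6, Ces1d in 4, and Aldh1a1 in 1 at 12 h and 3 at 24 h.

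Of the 8 tested type 1 cell genes, those of the flat alveolar cell that type 2 cells give rise to, 2 were lower and 1 higher in F21 lungs of 10% oxygen than in room air. Of all probe sets 4.62% were called lower there and 2.51% higher. Emp2, a membrane protein, was lower (log2 -2.82), as was Lmo7 (-1.05), and Igfbp2, a binding protein of insulin-like growth factors, was higher (1.45). At 2 h in 10% oxygen Emp2 (1.44), Ager (1.40) and the calcium-binding protein S100a6 (1.06) were higher and Igfbp2 was lower (-1.55) than at F21. At 6 h in 10% oxygen Emp2 (0.94) and S100a6 (1.30) were higher and Igfbp2 was lower (-1.72). Of all probe sets 1.37% were called higher and 1.28% lower at 2 h, and 2.99% and 3.32% at 6 h. In room air Emp2 was lower at 2 h (-1.30), and S100a6 was higher at 12 h and 24 h (1.85 and 1.86), also with any 1 array left out. There 2.77% of all probe sets were called lower at 2 h, and 0.88% and 0.433% higher at 12 h and 24 h. Between oxygen levels at 2 h, the caveolar protein Cav1 (-1.46, other probe set -0.22) and Lmo7 (-0.87) were lower and Hopx was higher (0.89), and at 6 h Emp2 (-1.40) and Lmo7 (-0.91) were lower. Of all probe sets, 9.08% were called lower and 7.76% higher at 2 h, and 3.55% lower at 6 h. With 1 array left out, Lmo7 passed in 3 of 6 fits at F21 and at 2 h and in 0 at 6 h. Hopx passed in 2 of 6, as did Ager and S100a6 at 2 h and Emp2 at 6 h in 10% oxygen against F21. The other type 1 calls above passed in 5 or 6 of 6. The summed signal of 6 ciliated cell markers, which mark the other main cell of the airway, lay between 843 and 1037 in F21 lungs of 10% oxygen, against 1218 to 1358 in room air. Only 2 of these markers were tested, of which Rsph1 was lower (log2 -0.89) and Foxj1 higher (1.14). Among all probe sets 4.62% were called lower there and 2.51% higher. The summed signal of 6 basal and squamous cell markers overlapped between these groups. Of the 3 tested, Trp63 was higher at 6 h in 10% oxygen than at F21 (1.92), where 2.99% of all probe sets were called higher.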

How the data were processed

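Whole lung (24 arrays) and whole liver (9 arrays) were measured on MGU74Av2 arrays. The authors deposited 1 linear signal intensity per probe set, computed in Microarray Suite (MAS5) with each chip brought to a target intensity of 100. Control probe sets (66) did not enter the tests. A floor of 10 was applied before taking log2, which understates changes of dim probe sets. Testing required a place in the top 40% of an array on at least 3 arrays of the fit (6931 for lung, 5693 for liver, 7640 for both organs). Comparisons used limma 3.58.1 in R 4.3.3 (all groups of the fit in 1 model, moderated variances with a trend on signal, Benjamini-Hochberg adjustment) with 16 residual degrees of freedom for lung. The number of arrays limits the precision. The procedure was tested on simulated data. Gene symbols came from the platform annotation (10855 with 1 symbol, 396 with several, 1237 with none), and of several probe sets of a gene the one of highest mean log2 signal stood for it. The genes and lists were chosen with earlier results of these data known. Named are all member probe sets, for each the 3 genes of highest r, and listed genes past the threshold between lung groups, at most 4 per list and comparison. Lists of further cell types of the lung are given in the closing section. Alternatives were a pseudocount of 16 without floor, quantile normalization, no filter, a fit of the groups compared, a block on sample number, the methods' t-test (unadjusted p under 0.01, and adjusted), a Gapdh ratio covariate, array weights, the F21 lungs of room air as baseline and leaving out each array. Cyclic loess was added after the data were seen.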

Additional observations from a re-analysis of the deposited data

Results flagged for a closer look

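The 2 h change was larger in 10% oxygen than in room air, by the test of the difference itself, for 3 genes described above. For Sftpc the difference was log2 1.67 (adjusted p = 0.0404 in limma), with a change of 0.33 in 10% oxygen against -1.33 in room air, and bright probe sets as a class were lower at 2 h in room air, as given in the report. For Vamp8, a gene of vesicle fusion, it was log2 1.35 (adjusted p = 0.0218), and its other probe set read 0.58. For Emp2, a gene of type 1 cells, it was log2 2.74 (adjusted p = 5.28e-04), with changes of 1.44 in 10% oxygen against -1.30 in room air, and this call held with each of the 12 arrays left out. All 3 differences involve the F21 lungs of 10% oxygen, in which Vamp8 (log2 -0.90) and Emp2 (-2.82) were lower than in the F21 lungs of room air. Groups of 3 were too small to test for a sample far from the others.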

How the results depend on the processing

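All 5 members were called in lung against liver at F21, 2 h and 6 h under every setting run, with the limit of the filter given above, and 0 of 2 in liver. The number of the 5 tested members called, in the report 1 each in room air at 2, 6 and 12 h and 0 at 24 h, became 2 at 2 h with the block on sample number and with array weights and 0 with the methods' t-test after adjustment. At 6 h it became 0 with quantile normalization, without the filter and with the methods' t-test, unadjusted or adjusted, at 12 h 0 without the filter and with either t-test, and at 24 h 1 with a pseudocount of 16, the block, the Gapdh covariate or array weights (Scgb1a1). In 10% oxygen the 3 of 2 h became 1 in the fit of the groups compared or with the unadjusted t-test and 0 with the adjusted t-test or the F21 lungs of room air as baseline, and the 2 of 6 h became 1 with the unadjusted t-test and 0 with the adjusted t-test or that baseline. Between oxygen levels, the 3 of F21 became 1 in the fit of the groups compared, with the Gapdh covariate or with the unadjusted t-test and 0 with the adjusted t-test, the 2 of 2 h became 1 with quantile normalization, no filter or the adjusted t-test, and the 0 of 6 h became 2 with the unadjusted t-test. The 1 difference between 2 h changes became 0 with quantile normalization, cyclic loess, no filter, the fit of the groups compared or the block. Under quantile normalization the rank of Sftpc fixed its change in room air, so that the loss there shows nothing. Leaving out each array gave 0 to 0 calls in room air at 6 h, 0 to 1 at 12 h, 2 to 3 in 10% oxygen at 2 h and at 6 h, 1 to 3 between oxygen levels at F21, 1 to 2 at 2 h, and 0 to 2 for the difference of 2 h changes.

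Values of the opposite sign to the report were log2 -0.18 for the 2 h difference of changes of Sftpc, -0.18 for Sftpc in 10% oxygen at 2 h and -0.40 for Sftpc between oxygen levels at 2 h, all with quantile normalization, which sets the brightest probe set of each array to 1 value. For Sftpb at 2 h in room air it was 0.46 with quantile normalization and 0.48 with cyclic loess, at 24 h -0.14 with array weights, and with the Gapdh covariate 0.16 at F21 and 0.46 at 6 h between oxygen levels. Sftpc at 24 h was 0.057 with cyclic loess, and Cyp2f2 in liver at 6 h was 0.020 with the Gapdh covariate. Against the F21 lungs of room air, the values of 10% oxygen at 2 h were -0.34 for Sftpc, -1.08 for Cyp2f2, -0.54 for Lyz2, -0.50 for Scd1, -0.095 for Vamp8 and -1.38 for Emp2, and at 6 h -0.052 for Sftpb, -0.15 for Sftpc, -1.08 for Cyp2f2, -0.051 for Chil1, -0.53 for Lyz2, -0.14 for Cyp4b1, -1.43 for Scd1 and -1.88 for Emp2. With arrays left out, none called in the report changed sign, and the ranges that crossed 0 were -0.25 to 0.067 and -0.83 to 0.034 for Chil1 at 12 h and 24 h in room air, -0.12 to 0.54 and -0.011 to 1.70 for the 2 h difference of changes of Cyp2f2 and Scgb1a1, -0.035 to 0.51 and -0.44 to 0.10 for Cyp2f2 at 2 h and 6 h in room air, -0.21 to 1.03 for the 6 h difference of changes of Sftpb, -0.27 to 0.081 and -0.19 to 0.13 for Sftpb at 2 h and 24 h in room air, and -0.14 to 0.49 for Sftpc in liver at 2 h. Apart from quantile normalization and the other baseline, the cause of these shifts was not tested. Same-numbered lungs did not deviate together (mean r of 0.0008 over 84 pairs, and 8 of 24 arrays correlated best with their own number), so that the block is a check only.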

Other observations

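Markers of the other cells that whole lung holds were tested in the same fits, and their part in the changes of the surfactant and secretory genes was not tested. Of 8 tested neutrophil genes none was lower after birth. The calcium-binding proteins S100a8 and S100a9 were higher at 2, 6 and 12 h in room air, with log2 3.04 and 2.95 at 6 h, and S100a8 also at 24 h (1.34). In 10% oxygen S100a8 and Lcn2 were higher at 2 h (1.18 and 1.85), and S100a8, Lcn2 and S100a9 at 6 h (1.81, 2.25 and 1.63). Of all probe sets 1.47%, 0.822%, 0.88% and 0.433% were called higher at 2, 6, 12 and 24 h in room air, and 1.37% and 2.99% at 2 h and 6 h in 10% oxygen. Lcn2 is also on the list of airway secretory genes. In 10% oxygen against room air, Lcn2 was lower at F21, 0 of the 8 passed in limma at 2 h (1, Elane, had an unadjusted p under 0.05), and S100a8 (-1.27) and Elane (-1.73) were lower at 6 h. Shares of all probe sets there were 4.62% called lower at F21, 16.8% called at 2 h and 3.55% called lower at 6 h.

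The summed macrophage markers were 1068 to 1528 at 2 h and 1161 to 1547 at 6 h in 10% oxygen, against 2235 to 3945 at 2 h and 2364 to 3891 at 6 h in room air. Lyz2, which type 2 cells also make, was lower in 10% oxygen at both times (log2 -1.90 and -1.67). Of 9 tested genes of mesenchyme, Col3a1 (-0.83), Col1a2 (-0.80), Col1a1 (-0.78) and Acta2 (-1.16) were lower at 6 h in 10% oxygen than at F21, though another probe set of Col1a2 read 0.22, and none passed after birth in room air. At 6 h in 10% oxygen 3.32% of all probe sets were called lower. Between oxygen levels Eln, the elastin gene and a very bright transcript, was higher in 10% oxygen at 2 h (1.28) and 6 h (1.24), where 7.76% and 2.25% of all probe sets were called higher. The summed mesenchyme markers at 2 h were 24626 to 29100 in 10% oxygen against 13275 to 13516 in room air. Few bright transcripts can carry such a sum. Of the 9 tested, 1 passed at 2 h, and the list median was log2 0.23. The brightest 1% of probe sets, members left out, had a median of 0.58 there, and their part in the sum was not tested. Of 9 tested genes of endothelium, Cdh5 was higher at 2 h (1.01) and Emcn lower at 12 h (-1.45) in room air, and Cdh5 was lower at 2 h in 10% oxygen against room air (-0.92). Of 4 tested erythroid genes, Alas2 (-1.47) and Hbb-b2 (-1.29) were lower in F21 lungs of 10% oxygen than in those of room air, and Hba-a1, a very bright transcript, was lower at 2 h in room air (-1.05) and higher at 2 h in 10% oxygen against room air (1.43). Of 3 tested neuroendocrine genes, Chga was lower at 6 h in 10% oxygen against room air (-2.44) and no other call was made between lung groups. Shares of all probe sets called in room air were 1.47% higher and 2.77% lower at 2 h, and 0.462% lower at 12 h. In 10% oxygen against room air they were 4.62% lower at F21, 9.08% lower and 7.76% higher at 2 h, and 3.55% lower at 6 h.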
